A study of Mus musculus with 8 samples.

Results

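Kupffer cells are the resident macrophages of the liver sinusoids. They clear particles, microbes and aged red blood cells from portal blood, and they carry a set of receptors that most other macrophages lack. The liver RNA sequencing of a *Ppara* V227A mouse line was searched for 32 genes of these cells by symbol, and all 32 were found among 27179 genes. Of these, 6 mark Kupffer identity (*Clec4f*, *Vsig4*, *Timd4*, *Cd5l*, *Marco* and *Folr2*) and 26 are general myeloid genes, used by many macrophages, monocytes or other leukocytes.

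The livers came from adult male C57BL/6NHsd mice after a 6 h fast, 4 wild-type and 4 homozygous for V227A, which replaces valine with alanine in the nuclear receptor PPARα throughout the body. The line descends from a single founder made by base editing of zygotes. The level used here is the authors' average log2 CPM (a count relative to the total of its library) of each gene over all 8 libraries, so every value below describes both genotypes together. Values per library were not analysed here, so the spread between mice, the level in each genotype and a difference between genotypes are not given.

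The mean effective library size implied by the table was 27473997 reads, and 18937 genes had at least 1 read in the 8 libraries. Levels were compared between genes as CPM per kilobase of the longest mature transcript, here termed the level per length. The 95% intervals are exact Poisson intervals on the estimated reads of all 8 libraries and cover counting error only. They leave out the error of estimating the reads from the average log2 CPM. *Alb*, the albumin gene of hepatocytes, took 6.95% of all reads, and the median level per length of 8 hepatocyte markers was 4497 CPM per kilobase. In whole liver, fewer Kupffer cells and less RNA per Kupffer cell cannot be told apart.

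All 32 genes had reads, and 31 had an average log2 CPM of at least 0. Among all genes with reads this share was 61.8%. Together the 32 genes made up 629 CPM, or 0.0628% of all reads. The 4 most abundant of them (*Slc40a1*, *Clec4f*, *Cd74* and *Cd5l*) held 49.2% of that sum. *Slc40a1* alone had 105 CPM, and hepatocytes and other cells use it as well, so the sum is not of myeloid cells alone. The median level per length of the 32 genes was 4.67 CPM per kilobase, against 1.46 over all genes with reads and a known length. In level per length, 24 of the 32 genes lay above the middle gene and 5 lay in the highest 10% of genes. From the highest to the lowest, the level per length fell 680-fold.

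**Figure D1:**
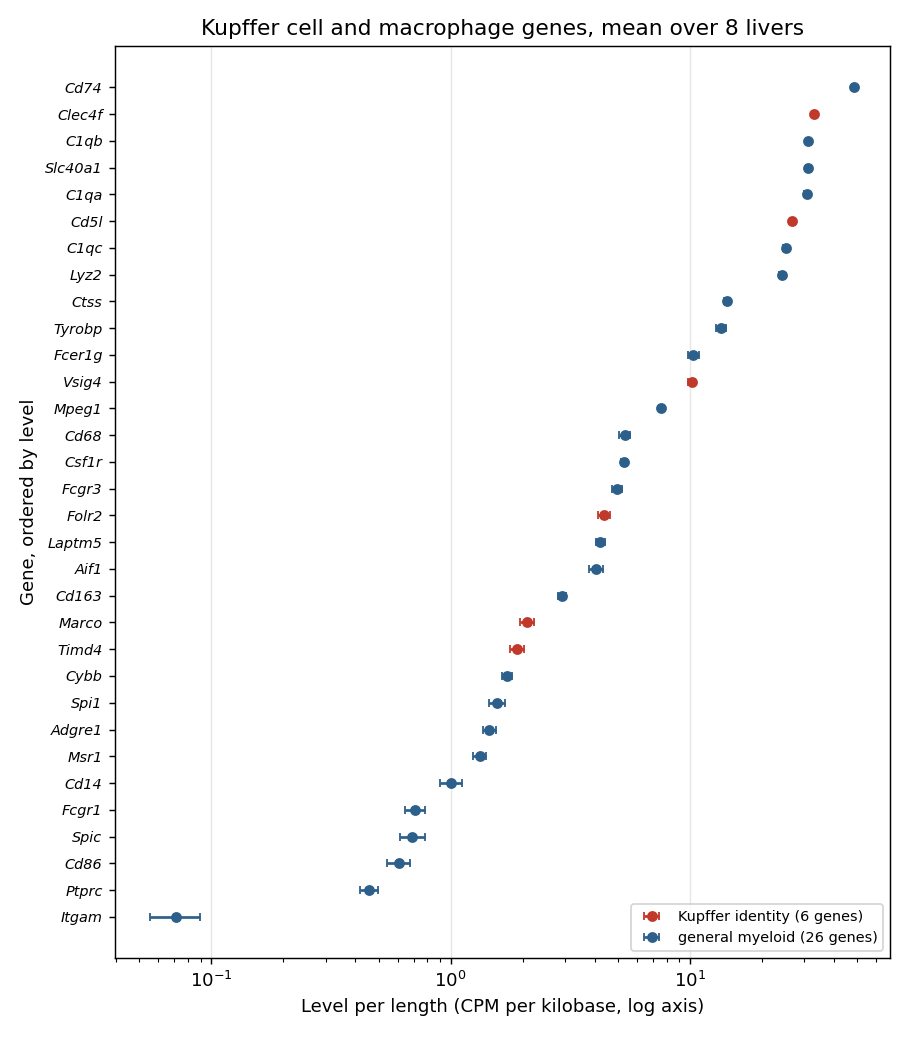
Level per length (CPM per kilobase, log axis) of the 32 genes, averaged over 8 livers, with Kupffer identity genes in red and general myeloid genes in blue. Bars are 95% counting intervals, and *Itgam* stands apart at the bottom with 0.0711 CPM per kilobase.

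The most abundant Kupffer identity gene was *Clec4f*, which encodes a galactose-binding C-type lectin found in the mouse almost solely on Kupffer cells. It lies on chromosome 6 of GRCm38 from 83644542 to 83656187. Its average log2 CPM was 6.36, from an estimated 18008 reads in all, and its level per length was 33.2 CPM per kilobase (32.7 to 33.6). *Cd5l* on chromosome 3 (87357881 to 87371073), whose product AIM is a secreted scavenger protein, followed with 26.8 CPM per kilobase (26.3 to 27.3). These 2 genes carried 83.0% of the 165 CPM of the 6 identity genes, with 49.8% in *Clec4f* alone.

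*Vsig4* on the X chromosome (96247203 to 96293438) encodes CRIg, the receptor with which Kupffer cells bind particles coated with complement C3 fragments. Its level per length was 10.2 CPM per kilobase (9.83 to 10.5). *Folr2*, encoding folate receptor beta, had 4.38 CPM per kilobase (4.13 to 4.64). An antisense gene, *Gm10602*, shares 2784 bases with *Folr2*, and whether the counting used the strand is not stated.

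*Marco*, a scavenger receptor for bacteria and particles, and *Timd4*, a receptor for phosphatidylserine on dying cells, closed the identity list. Their levels per length were 2.08 (1.95 to 2.22) and 1.89 (1.77 to 2.02) CPM per kilobase, with overlapping intervals. Their order turned round in plain CPM, at 4.01 for *Marco* and 4.11 for *Timd4*. Per length, *Clec4f* stood 17.5-fold above *Timd4*, so the 6 identity genes were far from equal in abundance.

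The median level per length was 7.28 CPM per kilobase for the 6 identity genes and 4.59 for the 26 general myeloid genes, a ratio of 1.58. The ranges overlapped widely. Among the general genes, 10 of the 26 lay above the identity median. Per length of the longest transcript only *Cd74* lay above *Clec4f*, with the median transcript length *Cd74* and *Slc40a1* did, and in plain CPM only *Slc40a1*. No test was run on this ratio, because genes are not replicates.

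Among the general genes, those for uptake and breakdown of material were led per length by *Lyz2*, encoding lysozyme, with 24.3 CPM per kilobase (23.7 to 24.8). Its neighbouring copy *Lyz1*, between which and *Lyz2* the counting could split reads, had an estimated 14.1 reads in all, against 7016 for *Lyz2*. *Ctss* (cathepsin S, a protease that trims the invariant chain) had 14.3 CPM per kilobase, *Mpeg1* (perforin-2) 7.57, *Cd68* (a lysosomal membrane protein) 5.35 and *Laptm5* (a lysosomal membrane protein of leukocytes) 4.23. *Aif1*, encoding the actin-binding protein IBA1, had 4.06 CPM per kilobase.

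The surface receptors spanned a wide range. *Csf1r* (chromosome 18, 61100598 to 61132149), the receptor for the growth factors that keep macrophages alive, had 5.32 CPM per kilobase (5.18 to 5.46). Its gene shares 873 bases with *Hmgxb3* on the other strand. *Cd163*, the receptor for haptoglobin-hemoglobin complexes, had 2.92, and the scavenger receptor gene *Msr1* 1.32. *Adgre1*, which encodes the F4/80 antigen used to stain mouse macrophages, had 1.45 CPM per kilobase (1.36 to 1.54), 22.9-fold below *Clec4f*. With the median in place of the longest transcript length this fold was 6.47.

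The pan-leukocyte gene *Ptprc* (CD45) had 0.456 CPM per kilobase (0.418 to 0.498), the second lowest level per length of the 32 genes. *Itgam*, encoding CD11b, which is high on monocytes and neutrophils and low on Kupffer cells, was the lowest. It had an estimated 73.2 reads in all 8 libraries and 0.0711 CPM per kilobase (0.0556 to 0.0892). Per length *Adgre1* was 20.4-fold higher than *Itgam*, and 64.2-fold with the median transcript length. Another annotated gene, *Gm49368*, runs over 55809 bases of *Itgam* on the same strand. *Gm49368* is not among the 27179 genes, and how its reads were counted is not known, so the value of *Itgam* is uncertain.

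In the order of level per length, the counting intervals of 16 of the 31 neighbouring pairs overlapped, so no order is given between them. The largest step between neighbours was the 6.42-fold step from *Ptprc* down to *Itgam*.

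The C1q chains form the recognition part of the first complement component, and macrophages are a main source of them. *C1qa*, *C1qc* and *C1qb* lie side by side on chromosome 4 of GRCm38 between 136880129 and 136898803. Their levels per length were 30.8 (30.1 to 31.5), 25.2 (24.6 to 25.8) and 31.2 (30.5 to 31.9) CPM per kilobase. *C1qa* and *C1qb* were within counting error of each other, and the ratio of *C1qb* to *C1qc* was 1.24 (1.20 to 1.28). The proteases of the same complex and their inhibitor, which hepatocytes make in large amounts, were higher. *C1ra* stood 2.74-fold, *C1s1* 4.14-fold and *Serping1* 16.3-fold above *C1qb*. The fold of *C1s1* was 6.87 with the median transcript length.

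Small adaptors with an ITAM signaling motif carry the signals of activating receptors, Fc receptors among them, into the cell. The adaptor genes *Tyrobp* (DAP12) and *Fcer1g* (the Fc receptor gamma chain) had 13.5 (12.9 to 14.1) and 10.4 (9.84 to 10.9) CPM per kilobase. *Fcgr3* had 4.96, *Fcgr4* 2.83 and *Fcgr1* 0.712 CPM per kilobase, and the inhibitory receptor gene *Fcgr2b*, which sinusoidal endothelial cells also use, had 4.62. With the median transcript length *Fcgr2b* was at 10.8, against 10.4 for *Fcer1g* and 13.9 for *Tyrobp*, and in plain CPM it was above both (16.4 against 7.07 and 8.05). *Fcgr2b* and *Fcgr3* have similar extracellular parts, among which reads could be split. Of the 11 genes of this list 10 had reads. *Trem1* had 0, with an interval that reached up to 0.00561 CPM per kilobase, and *Trem2* had an estimated 87.5 reads in all.

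The phagocyte NADPH oxidase makes superoxide from a membrane pair, encoded by *Cybb* and *Cyba*, and cytosolic subunits. *Cybb* had 1.72 CPM per kilobase (1.64 to 1.80) and *Cyba* 7.72 (7.30 to 8.16), a 4.49-fold difference per length, or 2.62-fold with the median transcript length. In plain CPM *Cybb* was the higher one, at 8.17 against 5.75. The cytosolic subunit genes *Ncf1* and *Ncf4* had 0.876 and 0.755 CPM per kilobase, both below *Cybb*. The GTPase gene *Rac2*, which is limited to blood cells, had 1.36, against 27.1 for the widely used *Rac1*.

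*Cd74* (chromosome 18, 60803848 to 60812652), the invariant chain that guides MHC class II molecules to the peptide-loading compartment, had 48.4 CPM per kilobase (47.6 to 49.2), the highest of the 32 genes per length of the longest transcript. With the median transcript length *Slc40a1* was higher (244 against 50.7), and in plain CPM *Slc40a1* (105) and *Clec4f* (81.9) were above *Cd74* (68.2). The class II chains *H2-Aa*, *H2-Ab1* and *H2-Eb1* had 19.4, 15.3 and 11.95 CPM per kilobase, so *Cd74* exceeded them 2.49-fold, 3.16-fold and 4.05-fold. The peptide-exchange genes *H2-DMb1* and *H2-DMa* had 1.16 and 0.952. The class II regulator *Ciita* had an estimated 81.1 reads in all, and the costimulatory genes *Cd86* and *Cd80* had 0.607 and 0.0355 CPM per kilobase. B cells and dendritic cells also use these genes.

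**Figure D2:**
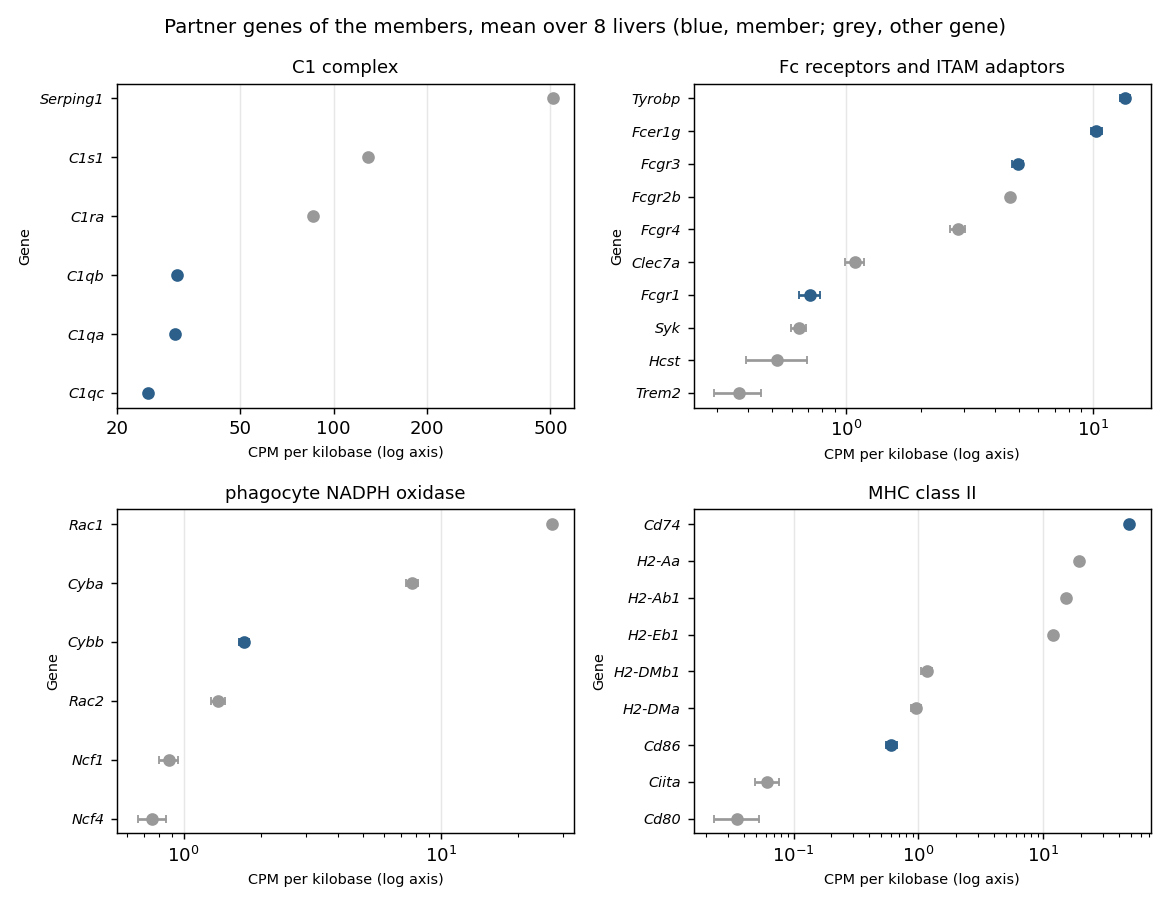
Level per length (CPM per kilobase, log axis) of the genes with reads in 4 lists of partner genes, averaged over 8 livers, with 95% counting intervals as bars. Blue points are among the 32 genes and grey points are not. The C1q chains lie below the protease genes of their complex and the inhibitor gene, and *Cd74* tops the class II list.

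*Cd14*, the co-receptor that hands bacterial lipopolysaccharide to its receptor complex, had 1.003 CPM per kilobase (0.903 to 1.11). The receptor gene *Tlr4* had 0.169 (0.143 to 0.198), *Ly96* (MD-2) 5.03 and *Lbp*, whose product hepatocytes secrete into plasma, 48.1. Of the ligands of *Csf1r*, *Csf1* had 1.21 and *Il34* 1.38 CPM per kilobase, which put *Csf1r* 4.38-fold and 3.84-fold above them. With the median transcript length *Csf1r* stood 7.59-fold above *Il34*, and the order of the 2 ligands turned round. *Csf2* had 0 reads, with an interval that reached up to 0.0210 CPM per kilobase.

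*Spi1* encodes PU.1, the ETS-family factor that macrophages need to form, and *Spic* encodes its relative SpiC, linked to macrophages that recycle red blood cell iron. Their levels per length were 1.56 (1.45 to 1.68) and 0.691 (0.611 to 0.780) CPM per kilobase. *Nr1h3* (LXRα) had 57.4, *Id3* 20.8, *Irf8* 1.85 and *Zeb2* 0.544 CPM per kilobase. Hepatocytes also use *Nr1h3* and other genes of this list, so these levels are not of Kupffer cells alone. All 13 genes of the list had an average log2 CPM of at least 0, where 61.8% of all genes with reads did.

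Factors of the PU.1 family bind DNA with a GGAA core. RefSeq promoters of GRCm38.p6, from 250 bases before to 50 after the start, were at hand for 22 of the 32 genes, among them all 6 identity genes. The letters GGAAGT, on either strand, occur in the promoters of 13 of these 22 genes (59.1%), against 26.5% of all 27025 genes with a promoter. Of the identity genes, 4 of 6 hold the letters. The longer form GAGGAAGT, which contains the shorter one, occurs for 2 of the 22 genes, *C1qc* and *Ctss*, against 3.69% of all. The matches are a description of letters and were not tested as binding sites. The stretches below show the sites of identity genes that lie before the RefSeq start, each on the strand of its gene, with the letters in capitals.
Clec4f: gaggcaggtttgGGAAGTtgtcctgacctc
Vsig4: acggaaggtgggGGAAGTgtgtgaggaaac
Timd4: tgcggcagaaagGGAAGTgaaagttgagcg
Folr2, distal: gctaaatcaccaGGAAGTgaaactcttcaa
Folr2, proximal: ggccttgttgaaGGAAGTgtgtgctcccgg
The *Clec4f* stretch is at chr6:83656132-83656161 on the minus strand, the *Vsig4* stretch at chrX:96293484-96293513 (minus) and the *Timd4* stretch at chr11:46810715-46810744 (plus). By the GENCODE annotation used for transcript lengths, the *Clec4f* stretch lies inside the gene, whose span there ends at 83656187. The *Folr2* stretches are at chr7:101857309-101857338 and chr7:101857254-101857283 (minus). The windows of *Cd5l* and *Marco* do not hold these letters.

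Markers of other cells that a whole liver can hold were read on the same scale. The median level per length of 8 markers was 4.35 CPM per kilobase for sinusoidal endothelial cells and 1.70 for stellate cells. It was 0.848 for lipid-associated macrophages, 0.120 for monocytes, 0.0731 for dendritic cells and 0.0209 for neutrophils, against 7.28 for the Kupffer identity genes. In plain CPM the endothelial median (17.4) was above that of the Kupffer identity genes (9.92), and the stellate median (7.73) was below it. The defining neutrophil genes *Ly6g* and *Camp* had an estimated 1.01 reads each in all 8 libraries, and the summed level of the 8 neutrophil markers was 0.829 CPM. The highest of the 8 was *S100a9*, with 92.7 reads and 0.812 CPM per kilobase. The monocyte genes *Ccr2* and *Ly6c2* had 88.6 and 31.99 reads in all, and *Plac8* of the same list had 1113 reads and 4.14 CPM per kilobase. The lists of monocytes and dendritic cells each hold a gene that other liver cells make in quantity, *Fn1* at 117 and *Bst2* at 132 CPM per kilobase. The lipid-associated macrophage list shares its highest gene, *Spp1* (15.9 CPM per kilobase), with the cholangiocyte list. *Spp1*, *Fabp5* (12.3) and *Cd9* (7.43) lay above the median of all genes with reads (1.46). *Cd63* (1.33), *Trem2* (0.366), *Itgax* (0.106), *Mmp12* (0.0353) and *Gpnmb* (0.0308) lay below it. T and NK cells had a median of 0.350 and B cells of 0.210 CPM per kilobase.

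**Figure D3:**
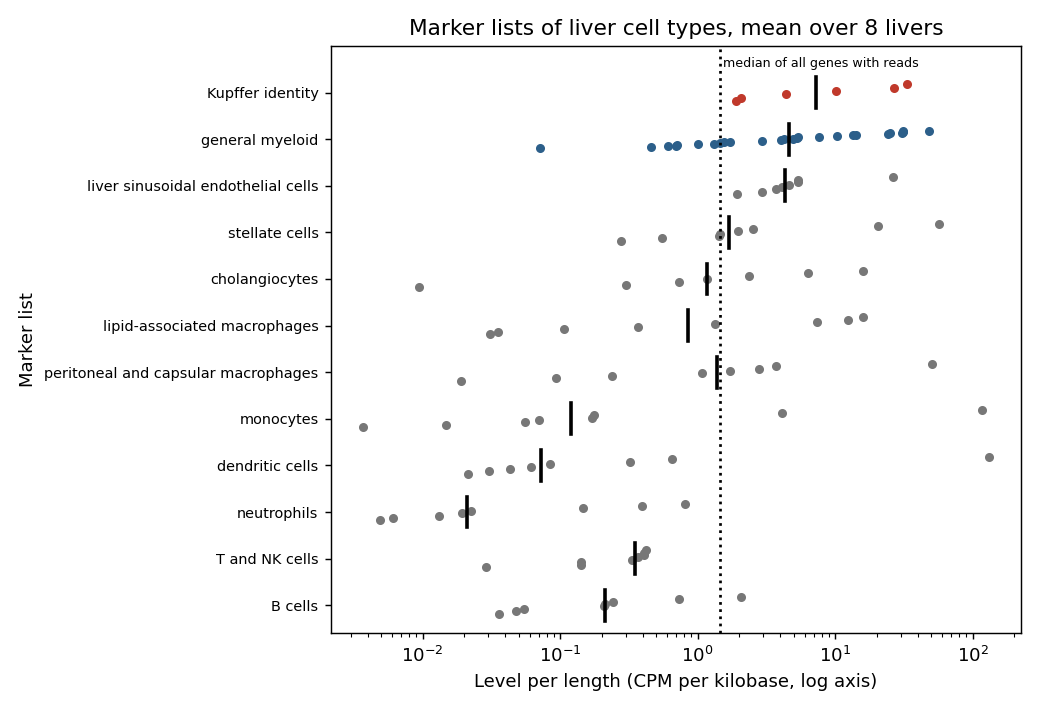
Level per length (CPM per kilobase, log axis) of each gene with reads in 12 marker lists, averaged over 8 livers. Black bars are the median of each list, the dotted line is the median of all genes with reads (1.46), and the neutrophil list has the lowest median (0.0209).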

How the data were processed

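Per the labels, stranded poly-A libraries of 8 livers were sequenced as paired-end reads. The authors trimmed them with Trimmomatic, checked them with FastQC, aligned them to GRCm38 with STAR, counted them with featureCounts and ran edgeR. Versions, annotation, strand setting and filters are not given in the sources used here. The authors deposited 1 table with an average log2 CPM per gene and 0 columns per library. Its other columns hold the authors' own comparison of the genotypes (fold change, F, p-value and adjusted p-value) and were not used.

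Reads per gene were estimated from the average log2 CPM with a prior count of 2, the default of the tool the authors ran. At totals of at most 5 reads, 99.9% of 2378 genes gave an estimate no more than 0.1 from an integer. The recovery was also tested on simulated data. Over the 1885 genes with the most reads there, the ratio of recovered to true reads had a median of 1. For 95% of these genes it lay between 0.9695 and 1.034. The counting intervals do not include this spread, and how it changes with the number of reads was not tested. Transcript lengths came from GENCODE vM21 and covered 94.8% of genes with reads. Python 3.11.15, pandas 2.3.3, numpy 2.4.6, scipy 1.17.1 and matplotlib 3.10.9 were used. All 32 genes were named, and partner and marker lists were fixed, of which 3 genes are not reported here. The genes and lists were chosen with earlier results of these data known. No test between groups was run.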

Additional observations from a re-analysis of the deposited data

How the results depend on the processing

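The median level per length of the identity genes was 7.28 CPM per kilobase, and that of the general myeloid genes 4.59. With the median transcript length they became 8.13 and 5.86, and in plain CPM 9.92 and 7.56. Limited to genes with an average log2 CPM of at least 0, the general median was 4.96 and the identity median did not move. With the prior count left in, both stayed within counting error (7.34 and 4.63). The identity median was the higher one under each of these settings, by 1.31 to 1.58 times. At an average log2 CPM of at least 3, 16 of the 32 genes remained (50%), where 41.1% of all genes with reads did. At 0 it was 31 of the 32, against 61.8% of all genes with reads. The median transcript length raised 8 of the 32 levels by over 1.5 times (*Slc40a1*, *Spi1*, *Adgre1*, *Msr1*, *Laptm5*, *Csf1r*, *Cybb* and *Marco*), most of all *Slc40a1*, from 31.1 to 244 CPM per kilobase, for which short partial transcripts are annotated. No paired analysis was possible because the table holds no value per library, and for the same reason no library could be left out and no genotype difference was fitted. Depth limits *Itgam* most, with a counting interval 1.60 times as high at its top as at its bottom.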

Other observations

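Kupffer cells take up hemoglobin and heme from aged red blood cells and return the iron to plasma. *Slc40a1*, encoding the iron exporter ferroportin, had 31.1 CPM per kilobase (30.7 to 31.5), with an interval that overlapped those of *C1qb* and *C1qa*, and hepatocytes and other cells use it as well. *Hmox1*, the heme-degrading enzyme, had 9.15 CPM per kilobase, the heme transporter gene *Slc48a1* 19.2, and *Slc11a1*, a metal transporter of phagosomes, 1.98. The plasma carriers that hepatocytes secrete were far higher. *Hp*, whose product brings hemoglobin to CD163, had 2840 CPM per kilobase, 973-fold above *Cd163*.

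Among 12 lysosomal genes, the membrane protein gene *Lamp1*, used by all cells, had the highest level per length (304 CPM per kilobase) and *Laptm5* the lowest (4.23). With the median transcript length *Ctsl* was the highest (712) and *Cd68* the lowest (5.88), and in plain CPM *Cd68* was also the lowest (6.58). *Ctsb* and *Ctsl*, encoding cathepsins B and L, had 123 and 96.3 CPM per kilobase, 8.61-fold and 6.75-fold above *Ctss*. The fold of *Ctsl* was 49.9 with the median transcript length. Of the 11 scavenger receptor genes, *Scarb1* had the highest level (63.1 CPM per kilobase) and *Msr1* the lowest (1.32). The lowest gene was *Timd4* (1.89) with the median transcript length and *Marco* (4.01) in plain CPM. The endothelial *Stab1* and *Stab2* had 5.53 and 5.37, above *Marco*, *Msr1*, *Cd163* and *Timd4* and below *Cd5l*. *Stab1* was at 74.8 CPM per kilobase with the median transcript length, above *Cd5l*.

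The list of peritoneal and capsular macrophages had a median of 1.39 CPM per kilobase, and its highest gene was *F5* (50.8), a clotting factor that hepatocytes make. Cholangiocyte markers had a median of 1.17 CPM per kilobase. The 6 erythroid markers read here ran from 0.0501 CPM per kilobase (*Slc4a1*) to 124 (*Hbb-bs*), around a median of 16.6.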
